A study of Mus musculus with 9 samples.

Results

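Creatine synthesis, creatine uptake and the brain creatine kinase were followed through 4 genes, Gatm, Gamt, Slc6a8 and Ckb, of the 12393 genes that a probe set of the array named alone. Every probe set annotated to 1 of these genes alone was taken. That gave 5 probe sets, namely 1423569_at for Gatm, 1422558_at for Gamt, 1417116_at (the brighter) and 1448596_at (the dimmer) for Slc6a8, and 1455106_a_at for Ckb. The genes were selected on their log2(signal + 16) values per array in the 3 groups below, so differences between these groups are given for them as a description, with standard errors and without a test.

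Each of the 9 Affymetrix arrays read RNA from motor neurons of 1 mouse, taken by laser capture from lumbar cord sections. The groups were SMA mice given a transplant of NSC (3 animals; NSC stands for neural stem cells, a reading taken from knowledge of the study), SMA mice given vehicle (3 animals) and wild-type mice given vehicle (3 animals). Every animal was operated on at postnatal day 1, the wild-type mice included, and killed at an age of 13 days. In spinal muscular atrophy (SMA) motor neurons are lost because SMN protein is scarce. The labels name neither the alleles, the strain nor the sex of the animals.

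Cells use creatine as a store of high-energy phosphate. Gatm, a mitochondrial enzyme, joins arginine and glycine to guanidinoacetate, and Gamt methylates guanidinoacetate to creatine with S-adenosylmethionine as the methyl donor. The transporter Slc6a8, encoded on the X chromosome, carries creatine into cells and across the blood-brain barrier, and the cytosolic kinase Ckb passes phosphate between creatine and ATP. In the nervous system the synthesis enzymes are known mainly from glia, with Gamt prominent in oligodendrocytes, and Ckb is abundant in glia and in some neurons. Inherited loss of GATM, GAMT or SLC6A8 in humans causes cerebral creatine deficiency.

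The promoters of Gatm, Gamt and Ckb are shown because both synthesis enzymes were low on the same pair of SMA arrays, on 1 of which the kinase was low too. An entry was found for 3 of the 4 genes. They are RefSeq sequences of build GRCm38.p6, each 300 bases long with 250 bases before the annotated start and 50 from it onward, on the minus strand at chr2:122611228-122611527, chr10:80260963-80261262 and chr12:111672289-111672588. Capitals mark matches on either strand to 3 motifs, which do not overlap one another here. They are the CCAAT box, whose name gives its letters, the GC box GGGCGG and the TATA box TATAAA.
Gatm: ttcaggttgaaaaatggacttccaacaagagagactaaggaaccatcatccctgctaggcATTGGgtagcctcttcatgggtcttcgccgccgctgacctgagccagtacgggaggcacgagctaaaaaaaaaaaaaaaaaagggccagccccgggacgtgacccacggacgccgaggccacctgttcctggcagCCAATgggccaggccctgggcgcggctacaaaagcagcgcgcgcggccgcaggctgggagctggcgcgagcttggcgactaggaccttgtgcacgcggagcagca
Gamt: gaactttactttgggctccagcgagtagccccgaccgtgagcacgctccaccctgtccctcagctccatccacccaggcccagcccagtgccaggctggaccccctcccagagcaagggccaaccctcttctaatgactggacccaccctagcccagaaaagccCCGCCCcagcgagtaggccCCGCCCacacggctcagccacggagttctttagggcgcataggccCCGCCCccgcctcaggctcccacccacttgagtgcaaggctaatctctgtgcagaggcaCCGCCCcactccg
Ckb: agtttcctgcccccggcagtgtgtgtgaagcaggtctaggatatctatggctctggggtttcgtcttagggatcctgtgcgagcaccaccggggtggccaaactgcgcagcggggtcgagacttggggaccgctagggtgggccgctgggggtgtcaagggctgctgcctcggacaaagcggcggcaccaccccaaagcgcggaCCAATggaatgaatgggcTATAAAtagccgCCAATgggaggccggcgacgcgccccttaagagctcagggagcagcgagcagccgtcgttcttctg

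The 3 promoters differed in their sets of matches, though Gatm and Ckb both had 2 CCAAT matches. That of Gatm had 2 CCAAT matches, beginning 190 bases (reverse strand) and 55 bases before the start, and 0 matches to the other motifs. That of Gamt had 4 GC box matches, all on the reverse strand, beginning 86, 67 and 22 bases before the start and 37 bases after it. That of Ckb had a TATAAA match beginning 28 bases before the start, between CCAAT matches 46 and 16 bases before it. Of all 32851 promoters of this length, 37.4% held a CCAAT match, 35.7% a GC box and 13.6% a TATAAA match. GC content was 60.7% for Gatm, 66.0% for Gamt and 63.0% for Ckb, against a median of 52.7% over all promoters. Matches describe the letters of these windows and were not tested as sites.

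Signals are MAS5 values, a linear brightness in arbitrary units that cannot be compared between probe sets. All 5 probe sets passed the filter on dim probe sets, which kept the brighter 50% by the mean over all 9 arrays (11313 probe sets). By that mean Ckb lay at percentile 99.4, the brighter Slc6a8 probe set at 92.7, Gatm at 90.8, Gamt at 80.7 and the dimmer Slc6a8 probe set at 62.8. Array medians were 31.4 to 35.8 units, and the number of arrays limits the precision. In bulk captures, fewer cells of a type and less RNA per cell cannot be told apart.

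The captures held glial RNA beside neuronal RNA. Of the motor neuron markers, the acetylcholine vesicle transporter Slc18a3 averaged a signal of 13.4, the choline transporter Slc5a7 7.90 and the transcription factor Isl1 8.83 over 9 arrays, all too dim to test. Isl2, another motor neuron factor, averaged 88.7 ± 28.9 in transplanted SMA, 46.8 ± 11.7 in SMA and 43.0 ± 16.6 in wild type (SD, n = 3 each; limma adjusted p = 0.933 for transplanted SMA minus SMA and 0.671 for transplanted SMA minus wild type). Neurofilament light chain Nefl read 559 to 1458. The myelin genes Mbp and Cnp read 7832 to 13349 and 5213 to 8096, and Gja1, an astrocyte gap junction gene, 1584 to 2678.

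Gatm, the first enzyme of creatine synthesis, was low on every transplanted array and on SMA animals 1 and 2. Its signals were 299, 309 and 290 in transplanted SMA, 208, 263 and 412 in SMA, and 419, 352 and 431 in wild type. The transplanted arrays lay close together and below all wild-type arrays, whereas SMA animal 3 lay within the wild-type range. Means were 299 ± 9.45 in transplanted SMA, 294 ± 105 in SMA and 400.5 ± 42.3 in wild type (SD, n = 3 each). On the log2(signal + 16) scale, which understates changes of dim probe sets, Gatm differed by -0.47 (SE 0.22) in SMA minus wild type. It differed by 0.08 (SE 0.22) in transplanted SMA minus SMA and by -0.40 (SE 0.22) in transplanted SMA minus wild type. Without SMA animals 1 and 2, which leaves 1 SMA array, transplanted SMA minus SMA was -0.44.

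Gamt, the second enzyme, was low only on the arrays of SMA animals 1 and 2 among the 9. Its signals were 171, 153 and 219.5 in transplanted SMA, 80.8, 76.7 and 175 in SMA, and 165, 202.5 and 163 in wild type. SMA animals 1 and 2 read below every other array, and SMA animal 3 read within the range of both other groups. Means were 181 ± 34.5 in transplanted SMA, 111 ± 55.4 in SMA and 177 ± 22.2 in wild type (SD, n = 3 each). The difference was -0.68 (SE 0.27) in SMA minus wild type and 0.71 (SE 0.27) in transplanted SMA minus SMA, 2 comparisons that share the SMA arrays. It was 0.02 (SE 0.27) in transplanted SMA minus wild type.

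**Figure D1:**
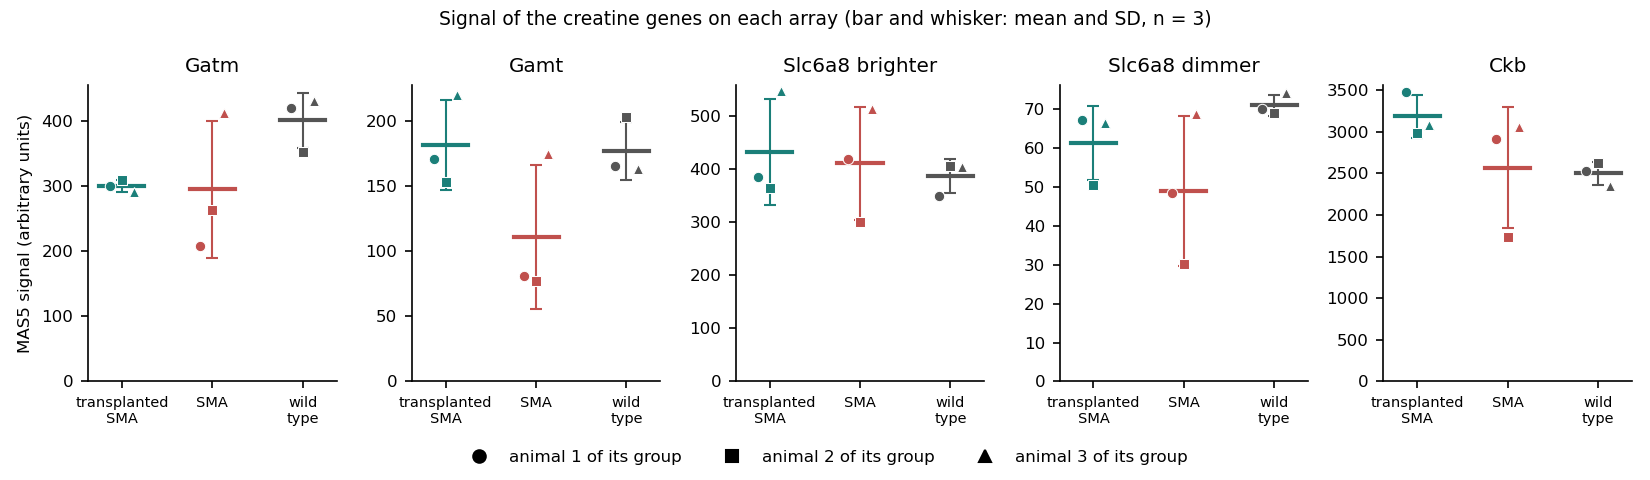
MAS5 signal (vertical axis from 0, arbitrary units) of the 5 probe sets in transplanted SMA, SMA and wild type; symbols are single animals, and bar and whisker are mean and SD (n = 3). Gamt read 76.7 and 80.8 on SMA animals 2 and 1 and at least 153 on the other arrays, and Gatm read 290 to 309 in transplanted SMA against 352 to 431 in wild type.

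Slc6a8, the creatine transporter, gave different pictures at its 2 probe sets. The brighter read 385, 364 and 546 in transplanted SMA, 419, 299.9 and 512.4 in SMA, and 349, 406 and 404 in wild type, with groups that overlapped in every comparison. Its differences were 0.06 (SE 0.22) in SMA minus wild type, 0.08 (SE 0.22) in transplanted SMA minus SMA and 0.14 (SE 0.22) in transplanted SMA minus wild type. The dimmer read 67.2, 50.5 and 66.6 in transplanted SMA, 48.6, 30.1 and 68.7 in SMA, and 70.0, 69.1 and 74.2 in wild type. Every SMA and every transplanted array thus lay below every wild-type array at the dimmer probe set, SMA animal 3 (68.7) only just below wild-type animal 2 (69.1). Its differences were -0.46 (SE 0.22) in SMA minus wild type, 0.29 (SE 0.22) in transplanted SMA minus SMA and -0.18 (SE 0.22) in transplanted SMA minus wild type. Without SMA animals 1 and 2, which leaves 1 SMA array, transplanted SMA minus SMA was -0.14.

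Ckb, the brain creatine kinase, had its highest mean in transplanted SMA. It read 3482, 2990 and 3088 in transplanted SMA, 2918, 1733 and 3060 in SMA, and 2532, 2626 and 2348 in wild type. The transplanted arrays lay above all wild-type arrays, while SMA animal 2 read lowest of the 9 arrays and SMA animals 1 and 3 lay above wild type. Means were 3186 ± 260.5 in transplanted SMA, 2570.2 ± 729 in SMA and 2502 ± 142 in wild type (SD, n = 3 each). The difference was 0.35 (SE 0.20) in transplanted SMA minus wild type, 0.35 (SE 0.20) in transplanted SMA minus SMA, and -0.004 (SE 0.20) in SMA minus wild type. Without SMA animal 2 the difference over SMA was 0.09. Astrocytes are rich in Ckb, and all 15 listed astrocyte markers were tested, with a summed signal of 14738.5 to 21916 in transplanted SMA, 12751 to 21478 in SMA and 14847 to 18427 in wild type. Of these markers 10 of 15 had positive differences in transplanted SMA minus wild type (median 0.09) and 11 of 15 in transplanted SMA minus SMA (median 0.16), with 0 called by limma (1 and 2 at an unadjusted p under 0.05). Their part in the level of Ckb was not tested.

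Over all 11313 probe sets limma called (adjusted p under 0.05) 0.0442% in SMA minus wild type (5 probe sets), 0% in transplanted SMA minus SMA and 0% in transplanted SMA minus wild type, with 683, 540 and 741 at an unadjusted p under 0.05. Groups did not overlap for 1 of the 5 creatine probe sets in SMA minus wild type (background 11.4%), for 0 of 5 in transplanted SMA minus SMA (9.11%) and for 3 of 5 in transplanted SMA minus wild type (14.1%). Those were the dimmer Slc6a8 probe set in the first comparison, and Gatm and the dimmer Slc6a8 probe set (lower) and Ckb (higher) in the last. The median difference of the 5 was -0.46, 0.29 and 0.02 in the 3 comparisons, against 0.01, 0.00 and -0.01 over all probe sets tested. Because these values chose the genes, nothing is read from the counts.

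**Figure D2:**
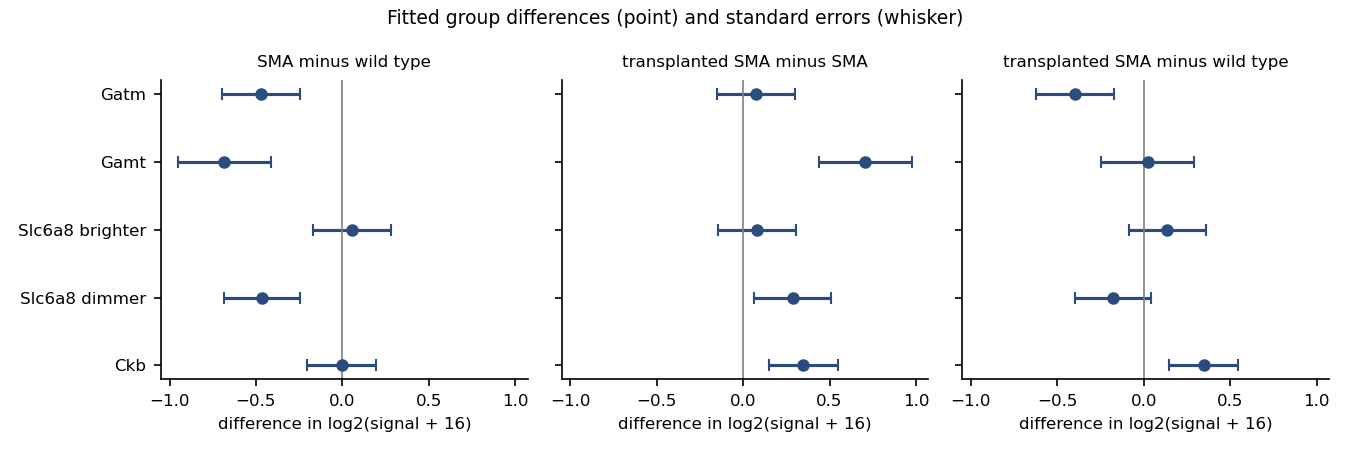
Fitted difference in log2(signal + 16) (horizontal axis) with its standard error for each of the 5 probe sets in the 3 comparisons. Gatm, Gamt and the dimmer Slc6a8 probe set lie at -0.47, -0.68 and -0.46 in SMA minus wild type, and Ckb lies near 0 there and at 0.35 in both transplanted comparisons.

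The SMA animals spread widely. Relative to the wild-type mean on the log2 scale, Gamt stood at -0.99, -1.05 and -0.01 on SMA animals 1, 2 and 3, and Gatm at -0.89, -0.57 and 0.04. The dimmer Slc6a8 probe set stood at -0.43, -0.92 and -0.04, and the brighter at 0.12, -0.35 and 0.40. Ckb stood at 0.22, -0.52 and 0.29. SMA animals 1 and 2 thus shared low levels of both synthesis enzymes, and animal 2 alone combined them with low Ckb.

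SMA animals 1 and 2 also stood apart in other transcripts. Skeletal actin Acta1 read 1289 and 1414 there, against 1.5 to 27.1 on the other 7 arrays. All 6 tested skeletal muscle markers had positive differences in SMA minus wild type (median 1.79). Of these, 0 were called by limma and 5 had an unadjusted p under 0.05. Acta1, Atp2a1, Mylpf and Ckm averaged below the filter's limit of 5.63 in log2 in transplanted SMA and in wild type. They passed only through SMA animals 1 and 2, so the filter largely fixed their sign. Of the markers too dim to test, Myh4 averaged lower in SMA (3.17) than in wild type (6.20), and the others higher. The summed signal of 11 skeletal muscle markers was 169.6 to 257 in transplanted SMA, 249 to 3504 in SMA and 131 to 471 in wild type. Xist, the RNA that coats the inactive X chromosome of females, read 366 to 879.5 on SMA animals 1 and 2 and the 3 transplanted arrays, and 23.5 to 47.6 on SMA animal 3 and wild type. Gatm followed the same line, with 208 to 309 on the 5 arrays high in Xist and 352 to 431 on the 4 arrays low in it, as did the dimmer probe set of the X-linked Slc6a8, with 30.1 to 67.2 and 68.7 to 74.2. The brighter Slc6a8 probe set (299.9 to 546 and 349 to 512), Gamt (76.7 to 219.5 and 163 to 202.5) and Ckb (1733 to 3482 and 2348 to 3060) did not.

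Among the arrays low in Xist, SMA animal 3 differed from the wild-type mean by 0.04 for Gatm and -0.01 for Gamt, with 1 SMA array and hence no spread of its own. Among the arrays high in Xist, the transplanted mean exceeded that of SMA animals 1 and 2 by 0.33 for Gatm, 1.04 for Gamt and 0.50 for Ckb (limma without SMA animal 3). With Xist as a covariate the difference in SMA minus wild type was 0.04 for Gatm and 0.16 for Gamt. In transplanted SMA minus wild type the same covariate gave 0.27 for Gatm, 1.12 for Gamt and 0.84 for Ckb. It gave 0.82 and 0.52 there for the brighter and dimmer Slc6a8 probe sets. All transplanted arrays were high in Xist and all wild-type arrays low, so Xist and group cannot be told apart in that comparison. These values are therefore not corrected group differences. With skeletal muscle markers as a covariate the difference in SMA minus wild type was 0.0009 for Gatm and -0.03 for Gamt. The muscle level relative to wild type was 2.82 and 2.72 on SMA animals 1 and 2, and -0.36 to 0.61 on the other arrays. This covariate thus nearly marks those 2 arrays. The fit then comes close to SMA animal 3 against wild type, so neither value is a corrected group difference. Within the SMA group Xist and muscle transcripts split the animals in the same way and cannot be told apart.

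Oligodendrocyte markers were low on SMA animals 1 and 2, as the synthesis enzymes were. All 21 tested markers of 28 listed (Gamt and Gatm left out) had negative differences in SMA minus wild type, with a median of -0.37 and 0 called (limma; 1 at an unadjusted p under 0.05), while 51.0% of all probe sets were positive. In transplanted SMA minus SMA 19 of 21 were positive (median 0.21, 0 called, 1 at an unadjusted p under 0.05), and in transplanted SMA minus wild type 6 of 21 (median -0.14, 0 called, 1 at an unadjusted p under 0.05). Without SMA animals 1 and 2, which leaves 1 SMA array, the median was 0.23 in SMA minus wild type and -0.33 in transplanted SMA minus SMA. The brightest, Mbp and Cnp, gave -0.01 (SE 0.17) and -0.02 (SE 0.16) in SMA minus wild type. The summed marker signal ranged from 43793 to 62034 in transplanted SMA, from 33532 to 58514 in SMA and from 44717 to 51938 in wild type.

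Some other cell type lists also had differences of 1 sign, with 0 called by limma in each list and comparison. In transplanted SMA minus SMA all 9 tested microglial markers were negative (median -0.82, 4 at an unadjusted p under 0.05). In SMA minus wild type all 9 were positive (median 0.25, 0 at an unadjusted p under 0.05). Their summed signals were 5329 to 10755 in transplanted SMA, 9898 to 11819 in SMA and, with the widest spread, 6147 to 13632 in wild type. All 6 tested endothelial markers were positive in transplanted SMA minus SMA (median 0.45, 0 at an unadjusted p under 0.05). Summed signals were 739 to 1339 in transplanted SMA, 406 to 1274 in SMA and 393 to 841 in wild type. All 3 tested erythroid markers were negative in SMA minus wild type (median -0.72, 2 at an unadjusted p under 0.05) and in transplanted SMA minus wild type (median -0.97, 1 at an unadjusted p under 0.05). Their summed signals were 1395.5 to 2155 in transplanted SMA, 1464 to 1781 in SMA and 2709 to 3574 in wild type. The part of these cells in the levels of the creatine genes was not tested.

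By array, the mean log2 level of the oligodendrocyte markers relative to wild type was -0.47, -0.26 and 0.25 on transplanted animals 1, 2 and 3, and -0.72, -0.54 and 0.03 on SMA animals 1, 2 and 3. Over the 9 arrays the marker level correlated with Gamt at Pearson's r = 0.86 (Spearman's rho 0.87), and at 0.68 over 7 arrays without SMA animals 1 and 2. Gatm gave r = 0.70 (rho 0.50) over 9 arrays and 0.24 over those 7, so its relation rests on those 2 arrays. Ckb gave r = 0.16 (rho 0.22) over 9 arrays and -0.41 over 7. The astrocyte marker level correlated with Gamt at r = 0.64 (rho 0.63) and with Ckb at 0.53 (rho 0.48), and at 0.51 and 0.43 over 7 arrays without the 2 farthest (SMA animal 3 and transplanted animal 3). Over the 7 arrays without SMA animals 1 and 2 it correlated at only 0.21 with Gamt and 0.21 with Ckb. The arrays form separate clusters by muscle and by Xist level, so no r over all 9 is given for these. Among the 7 arrays other than SMA animals 1 and 2, the muscle level correlated with Gamt at -0.10 and with Gatm at 0.19. All levels share array, amplification and scaling, and these correlations are given as descriptions. Of all tested probe sets, 1.06% had a higher r with the markers than Gamt and 4.95% a higher r than Gatm.

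Set against the oligodendrocyte markers of its own array, Gatm differed by -0.06 in SMA minus wild type and Gamt by -0.27. In transplanted SMA minus SMA, Gamt differed by 0.45 on this relative scale and Gatm by -0.18. Relative to the markers, transplanted animal 3 had the lowest Gatm of the 9 arrays, at -0.69 from the wild-type mean, and transplanted animal 1 the highest Gamt, at 0.43. The part of oligodendrocyte RNA in the level of either enzyme was not tested beyond these values.

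**Figure D3:**
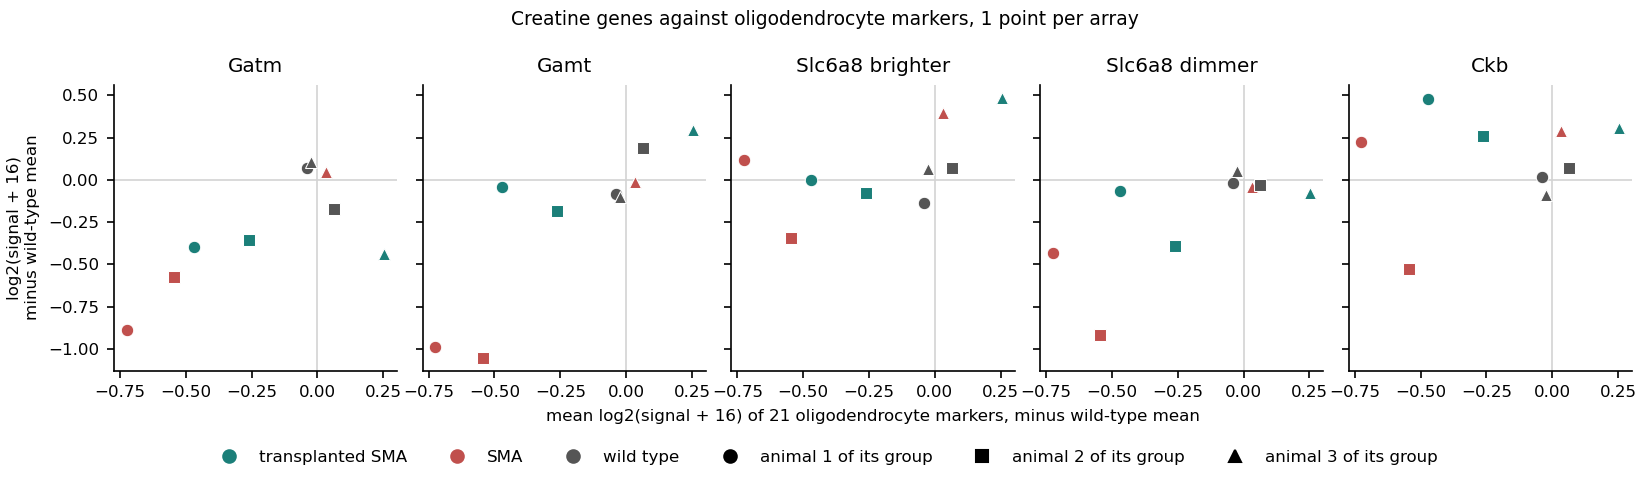
Each probe set's log2(signal + 16) minus its wild-type mean (vertical axis) against the mean of 21 oligodendrocyte markers minus theirs (horizontal axis), 1 point per array, coloured by group. Gamt and Gatm are low where SMA animals 1 and 2 have the lowest marker levels (-0.72 and -0.54), while Ckb shows no such order (r = 0.16 over 9 arrays).

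The other creatine kinases were dim or followed muscle, and the muscle kinase Ckm is itself a listed muscle marker. Muscle kinase Ckm read 22.6, 33.6 and 26.1 in transplanted SMA, 180.1, 226 and 9.1 in SMA, and 18.0, 16.2 and 22.3 in wild type. Its high values fell on SMA animals 1 and 2, which were high in Acta1, and its differences were 1.61 (SE 0.65, limma adjusted p = 0.788) in SMA minus wild type and -1.30 (SE 0.65, adjusted p = 0.933) in transplanted SMA minus SMA. Ckm passed the filter only through those 2 arrays, so the filter largely fixed the sign of both differences. Sarcomeric mitochondrial kinase Ckmt2, too dim to test, read 22.0 and 38.7 on those 2 arrays and at most 10.5 elsewhere. The ubiquitous mitochondrial kinase Ckmt1 read 59.3, 109.7 and 32.8 in transplanted SMA, 59.1, 62.4 and 46.5 in SMA, and 101.9, 63.0 and 63.6 in wild type at its brighter probe set. Its SMA arrays lay below all wild-type arrays by a narrow margin, with a difference of -0.34 (SE 0.31, adjusted p = 0.994). The dimmer Ckmt1 probe set, too dim to test, read 21.8 to 34.8 in transplanted SMA, 14.1 to 16.8 in SMA and 13.1 to 27.4 in wild type.

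**Figure D4:**
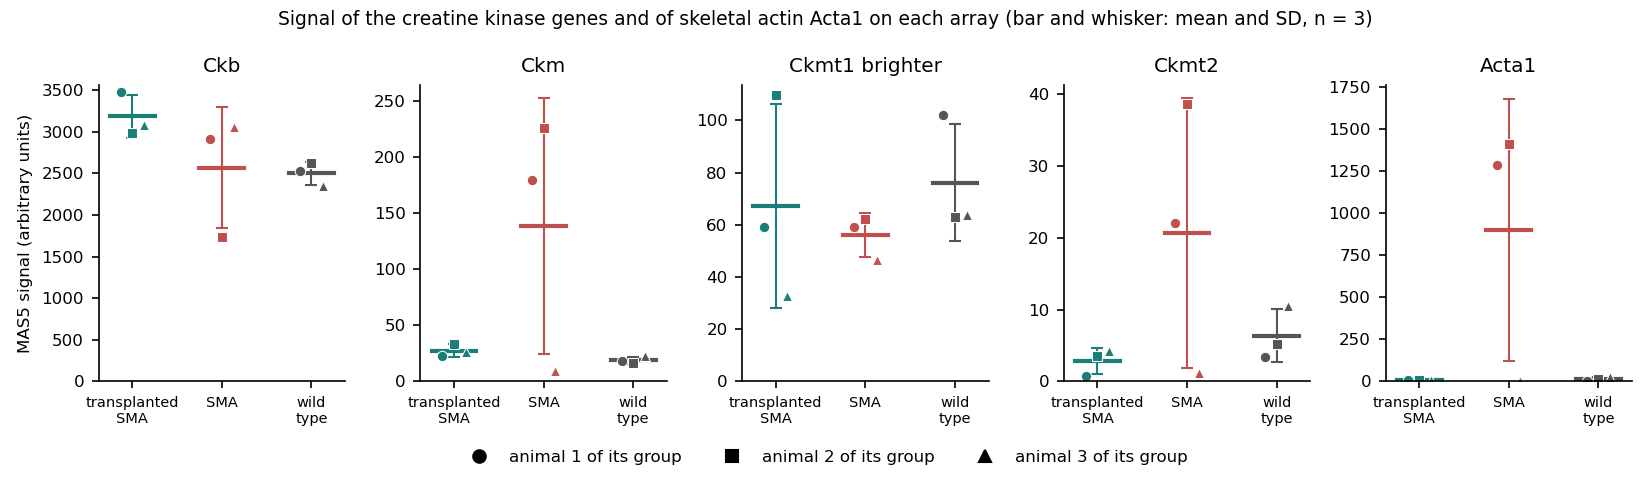
MAS5 signal (vertical axis from 0, arbitrary units) of Ckb, Ckm, the brighter Ckmt1 probe set, Ckmt2 and skeletal actin Acta1 in the 3 groups; symbols are single animals, and bar and whisker are mean and SD (n = 3). Ckm, Ckmt2 and Acta1 are high on SMA animals 1 and 2 and not on animal 3, where Ckm reads 9.1.

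Genes of the metabolism and transport of arginine and glycine, the substrates of Gatm, gave no call. The list mixed genes that make these substrates with genes that use them up. Of 20 listed, 18 had a probe set and 11 were tested, and 0 passed limma's test in any comparison (0, 0 and 1 at an unadjusted p under 0.05, with SMA minus wild type first and transplanted SMA minus wild type last). Medians were -0.02, -0.09 and -0.0001. Dihydrolipoamide dehydrogenase Dld, a subunit of the glycine cleavage system, read 100.4, 120.6 and 125.3 in transplanted SMA, 150.3, 121.7 and 150.5 in SMA, and 176.4, 129.1 and 176.9 in wild type. Its transplanted arrays lay below all wild-type arrays, at -0.42 (SE 0.18, adjusted p = 0.752). The serine hydroxymethyltransferase Shmt2, which makes glycine in mitochondria, gave 0.28 (SE 0.16, adjusted p = 0.933) in transplanted SMA minus SMA, and the serine phosphatase Psph -0.32 (SE 0.18, adjusted p = 0.933).

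The methyl donor cycle, which provides the S-adenosylmethionine that Gamt consumes and clears its product, gave no call either. Of 18 listed genes 15 had a probe set and 8 were tested, with 0 called (limma; 1, 0 and 0 at an unadjusted p under 0.05) and medians of -0.08, -0.03 and -0.15. Cystathionine beta-synthase Cbs, which draws homocysteine out of the cycle, read 177.8, 200.7 and 134.3 in transplanted SMA, 403.1, 220.7 and 198.8 in SMA, and 169.5, 189.6 and 106.5 in wild type. All SMA arrays lay above wild type, most of all animal 1, and the difference was 0.73 (SE 0.29, adjusted p = 0.765). S-adenosylhomocysteine hydrolase Ahcy, which removes the by-product of methylation, gave -0.46 (SE 0.28, adjusted p = 0.908). The mitochondrial S-adenosylmethionine carrier Slc25a26 gave -0.31 (SE 0.19, adjusted p = 0.842) in transplanted SMA minus wild type.

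Other genes of phosphoryl transfer included the lowest adjusted p of the pathway lists. Of 18 listed, 13 had a probe set and were tested, with 0 called (limma; 1, 1 and 2 at an unadjusted p under 0.05) and medians of 0.09, 0.07 and 0.07. Mitochondrial adenylate kinase Ak4 read 56.2, 98.2 and 122 in transplanted SMA, 81.2, 66.8 and 88.2 in SMA, and 214, 125 and 173 in wild type. Both SMA groups lay below every wild-type array, SMA animal 3 included, by -0.81 (SE 0.26, adjusted p = 0.677) in transplanted SMA and -0.96 (SE 0.26, adjusted p = 0.534) in SMA. Cytosolic adenylate kinases gave positive differences in transplanted SMA, with Ak1 at 0.45 (SE 0.18, adjusted p = 0.933) over SMA and Ak5 at 0.49 (SE 0.21, adjusted p = 0.738) over wild type.

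Of the transporter relatives of Slc6a8, 5 were listed and 1 was tested. The taurine transporter Slc6a6 gave 0.29 (SE 0.27, limma adjusted p = 0.996) in SMA minus wild type and -0.35 (SE 0.27, adjusted p = 0.933) in transplanted SMA minus SMA.

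**Figure D5:**
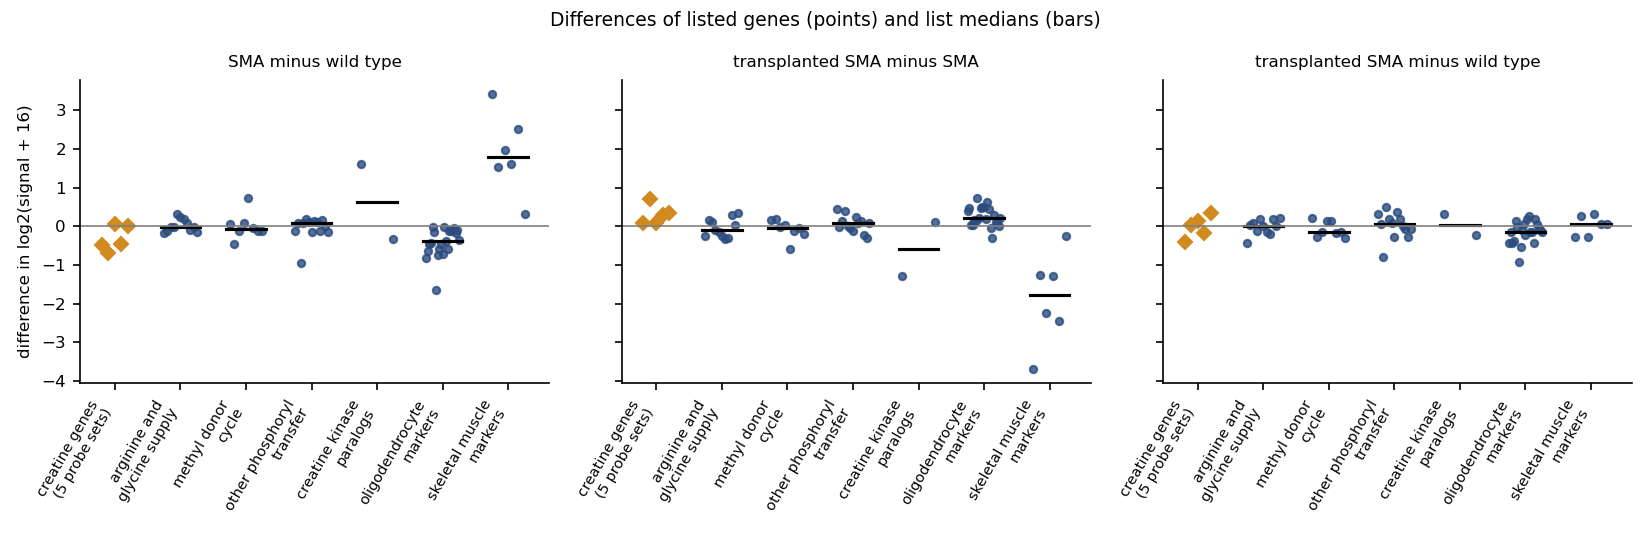
Difference in log2(signal + 16) (vertical axis) of the 5 creatine probe sets (diamonds) and of each tested gene of 6 lists (points, with list medians as bars) in the 3 comparisons. The arginine, glycine and methyl donor lists centre near 0, oligodendrocyte markers lie at or below 0 in SMA minus wild type (median -0.37), and muscle markers reach 3.43.

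The 5 genes most like each creatine gene were taken by Pearson's r over the 9 arrays among 7250 other genes, so that high values follow from the choice. Gatm came closest to Cycs (r = 0.96), the cytochrome c of the respiratory chain, then Clic4 (0.93), Rab21 (0.93), Tnfrsf19 (0.93) and Snx6 (0.91). For Gamt they were Birc2 (0.96), Mal (0.95), a myelin proteolipid, Fntb (0.95), Gnai1 (0.95) and the choline transporter Slc44a1 (0.95). Of these, Mal had the highest r of deviations from group means, 0.97, and over 7 arrays without SMA animals 1 and 2 Fntb gave r = 0.85, Mal 0.84, Slc44a1 0.83, Gnai1 0.77 and Birc2 0.65.

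For the brighter Slc6a8 probe set the closest were Csnk2a1 (0.99), Map4k4 (0.94), Phka1 (0.93), Pigyl (0.93) and Ptpn11 (0.92). Csnk2a1, a catalytic subunit of casein kinase, kept r = 0.99 for deviations from group means and without SMA animals 1 and 2. For Ckb they were S100a1 (0.98), Atf6 (0.96), Reep5 (0.95), Palld (0.94) and Vps36 (0.94), and S100a1 gave 0.94 without those 2 arrays. No gene appeared under more than 1 of the creatine genes.

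Among the creatine genes themselves, Gatm and Gamt correlated at r = 0.64 (rho 0.30) over 9 arrays and at -0.36 over 7 without SMA animals 1 and 2, so that their likeness rests on that pair. Gatm and Ckb gave r = -0.03 (rho -0.22) and -0.73. Gamt and the brighter Slc6a8 probe set gave 0.56 (rho 0.63) and 0.68. The 2 Slc6a8 probe sets correlated with each other at 0.58 (rho 0.10) and 0.23.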

How the data were processed

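RNA of laser-cut motor neurons, isolated from about 100 cells per cap in 16 µm sections, was amplified in 2 rounds and hybridised to Affymetrix arrays, 1 animal per array, per the labels' protocols. The authors deposited MAS5 signal, a linear intensity for each probe set, per the submitters' processing notes, which name no version. Because the trimmed mean (2% off each end) lay between 99.2 and 99.4 in all 9 columns, no further scaling was applied. Double amplification favours transcript 3' ends.

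Of 22690 probe sets, 64 controls were left out; 20380 named 1 gene, 691 several and 1555 were unlisted in the platform annotation, and 0 of 20351 symbols changed when looked up by gene ID. Signals were taken to log2 after adding 16. The brighter 50% (11313 probe sets) was tested with limma 3.58.1 in R 4.3.3 (lmFit, eBayes with trend) with a mean per group, 6 residual and 4.93 prior degrees of freedom, two-sided, with Benjamini-Hochberg adjustment over all tested probe sets. The script was tested on simulated data. Nothing in the labels but 1 animal per array separates replicates, and p-values measure the spread between these animals.

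A listed gene entered by its brightest probe set. Named were all creatine kinases, the 3 genes with the smallest unadjusted p of each other pathway list, from the 2 brightest tested markers of each cell type list those that stand beside a result, Slc18a3, Slc5a7, Isl1, Acta1, Xist and the 5 most like each creatine gene. Members, lists, rule and alternatives were chosen with earlier results of these data known. Alternatives covered normalisation, pseudocount, filter, eBayes trend, arrays fitted, the replicate number as a block, covariates and leaving out arrays.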

Additional observations from a re-analysis of the deposited data

How the results depend on the processing

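Of 771 differences and list medians under alternatives, 682 moved by less than 1 SD between replicates and 653 kept their sign. Some alternatives cannot move the fitted difference of a probe set. They are the filter, the eBayes trend, fitting only the arrays compared, the replicate block and leaving out arrays of the uncompared group. Both totals thus include values that are unmoved by construction, and they do not measure robustness. The sign of Gamt in SMA minus wild type turned only with Xist as a covariate (0.16), and with arrays left out in turn it ranged from -1.02 (without SMA animal 3) to -0.50. Gatm there ranged from -0.73 (without SMA animal 3) to -0.26 with arrays left out. Without SMA animals 1 and 2, which leaves 1 SMA array, it was 0.04. In transplanted SMA minus SMA the same setting gave -0.44 for Gatm, -0.26 for the brighter Slc6a8 probe set and -0.14 for the dimmer. With Xist as a covariate the differences in transplanted SMA minus wild type were 0.27 for Gatm, 1.12 for Gamt and 0.84 for Ckb. They were 0.82 and 0.52 for the brighter and dimmer Slc6a8 probe sets, and Xist cannot be told apart from group in that comparison. In transplanted SMA minus SMA, Gamt ranged from 0.03 (without SMA animals 1 and 2) to 1.04 (without SMA animal 3) and kept its sign throughout, as did Ckb in both transplanted comparisons. The cause of these shifts was not tested.

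Counts of probe sets past the threshold in SMA minus wild type (5) ranged from 2 (without SMA animal 1 or wild-type animal 1 or 2) to 13 (without SMA animal 3) with arrays left out, 3 without wild-type animal 3 and 9 without SMA animal 2 among them. They were 2 among the brighter 25%, and 0 with skeletal muscle markers or Xist as a covariate or without SMA animals 1 and 2. In transplanted SMA minus SMA (0) they ranged from 0 to 4 (without SMA animal 3) with arrays left out and were 3 with Xist as a covariate. In transplanted SMA minus wild type (0) they ranged from 0 to 7 (without SMA animal 3) with arrays left out, with 1 without transplanted animal 2, and were 2 with a pseudocount of 1, 5 with skeletal muscle markers and 1 with oligodendrocyte markers as a covariate, 8 without SMA animals 1 and 2, and 8 with only the 6 arrays compared. With the replicate number as a block they were 5, 0 and 0. Deviations from group means of same-numbered arrays correlated at -0.08 to 0.45, over 0.1 in 6 of 9 pairs, and 6 of 9 arrays correlated best with their own number. No label pairs the animals by these numbers, so the main fit did not pair them. Shared handling by number was not tested beyond these values. Signals near background limit Ckmt2, the dimmer Ckmt1 probe set and all motor neuron markers except Isl2, which were not tested.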

Other observations

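The 2 Slc6a8 probe sets parted in the SMA animals. The brighter minus the dimmer, relative to the wild-type mean of that log2 gap, was 0.06, 0.31 and 0.56 on transplanted animals 1, 2 and 3, 0.55, 0.57 and 0.44 on SMA animals 1, 2 and 3, and -0.12, 0.11 and 0.01 on wild-type animals 1, 2 and 3. The gap was thus larger on every SMA array than on any wild-type array, SMA animal 3 included, by 0.52 on average. The same gap between the brightest 2 tested probe sets did not overlap between SMA and wild type for 9.34% of 2228 genes, and 6.19% of them had a larger mean shift. The 3'/5' signal ratio depends on RNA integrity and on the 3' bias of double amplification. For actin it was 2.48 to 3.09 in transplanted SMA, 2.97 to 4.32 in SMA and 2.70 to 3.66 in wild type. That of Gapdh was 3.2 to 3.82 in transplanted SMA, 3.30 to 4.26 in SMA and 3.19 to 3.63 in wild type. Their part in the gap was not tested. This comparison of probe sets was chosen after the values were seen.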
